A study of Mus musculus with 19 samples.

Results

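The genes described here mark 3 cell types of the distal nephron: 11 genes of the thick ascending limb, 9 of the distal convoluted tubule and 13 of collecting duct principal cells. These 33 genes were chosen by name as markers of the segments, by a rule that sets no threshold on a measured value, and all 33 were found among the 26506 genes of the count table. The choice was made with earlier results of these data known. Poly(A) RNA from homogenised whole kidney and liver of male mice was sequenced. Knockout mice were homozygous for a deletion of the alternative exon 6b of the macroH2A1 gene (H2afy), which removes the macroH2A1.1 splice form of this histone variant and leaves the macroH2A1.2 form. The allele was made by treating zygotes that carried a floxed exon 6b with soluble Cre enzyme, so the exon is missing from the whole mouse and not from the kidney alone. Wild-type mice came from matings of heterozygous carriers, and both genotypes shared a C57BL/6J background. Kidney was sequenced from 5 knockout mice (numbers 13, 14, 15, 16 and 18) and 5 wild-type mice (19, 20, 22, 23 and 24), and liver from the same 5 knockout numbers and 4 of the wild-type numbers (19, 20, 22 and 24). The number in each library's title is taken here as the mouse. Nothing in the labels states that each library is a different animal; if some are not, the spread behind the p-values is partly technical. Age, and which of the standard and ketogenic diets a given mouse ate, are not given in the sources used here.

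The thick ascending limb reabsorbs salt through the apical cotransporter NKCC2 (Slc12a1), with potassium recycling through ROMK (Kcnj1) and with barttin (Bsnd) needed for chloride exit, and it carries calcium and magnesium between cells through claudin pores. It also secretes uromodulin (Umod), the most abundant protein of normal human urine. The distal convoluted tubule takes up salt through the thiazide-sensitive cotransporter NCC (Slc12a3), which WNK kinases switch on through the kinase SPAK (Stk39) and which the adaptor Klhl3 restrains by directing WNK kinases to degradation. Principal cells take up sodium through the epithelial channel ENaC (Scnn1a, Scnn1b, Scnn1g) under aldosterone and water through aquaporin-2 (Aqp2) under vasopressin.

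Umod, Slc12a3 and Aqp2 carry the identity of these cells most plainly, and their promoters are shown because each gene defines 1 segment. The 250 bases upstream of the start were taken from RefSeq on GRCm38.p6, written 5′ to 3′ on the gene's own strand, at chr7:119479263-119479512 on the minus strand for Umod, chr8:94328958-94329207 on the plus strand for Slc12a3 and chr15:99578806-99579055 on the plus strand for Aqp2. Capitals mark matches, on either strand, to 5 short motifs that are spelled out after the sequences.
Umod: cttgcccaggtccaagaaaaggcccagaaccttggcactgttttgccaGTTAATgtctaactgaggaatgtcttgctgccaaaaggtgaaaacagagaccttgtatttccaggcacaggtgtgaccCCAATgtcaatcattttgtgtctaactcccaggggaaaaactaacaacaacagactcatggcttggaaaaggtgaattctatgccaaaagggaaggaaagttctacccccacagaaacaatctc
Slc12a3: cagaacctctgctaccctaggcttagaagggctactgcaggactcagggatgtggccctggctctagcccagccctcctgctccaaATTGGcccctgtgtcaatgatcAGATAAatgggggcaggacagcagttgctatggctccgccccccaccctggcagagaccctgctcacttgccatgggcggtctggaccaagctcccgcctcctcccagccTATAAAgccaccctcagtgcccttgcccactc
Aqp2: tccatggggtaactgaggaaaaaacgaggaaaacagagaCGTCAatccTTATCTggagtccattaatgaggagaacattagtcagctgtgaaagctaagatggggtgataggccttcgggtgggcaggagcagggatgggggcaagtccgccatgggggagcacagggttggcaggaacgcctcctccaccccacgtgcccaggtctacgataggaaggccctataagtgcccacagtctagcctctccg

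No 2 of the marked matches overlapped. The Umod promoter held a half-site of the kidney and liver factor HNF1 (GTTAAT) 202 bases before the start. A promoter element known for the factor NF-Y (CCAAT) lay 124 bases before the same start. In the Slc12a3 promoter, the letters read by the basal transcription machinery (TATAAA) lay 32 bases before the start. The motif of GATA factors, which include the principal cell factor Gata3, is spelled AGATAA here and lay 142 bases before the start of Slc12a3. The NF-Y element was reversed there, at 164 bases. The Aqp2 promoter held a reversed GATA motif at 202 bases, and at 211 bases a reversed half-site of the cyclic AMP response element (TGACG), the element through which vasopressin signals are known to act. The RefSeq table held promoters for 26 of the 33 genes, 32 promoters in all. The HNF1 half-site was in 3 of these 32 (Umod, Cldn10 and Cldn14), against 6.43% of all 32851 promoters of the table. The GATA motif was in 4 of 32 against 9.99% and the cyclic AMP half-site in 6 of 32 against 17.8%. The NF-Y element was in 9 of 32 against 33.85%, and the basal element in 3 of 32 against 12.4%. These are matches of letters and do not show that a factor binds.

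Kidney libraries held 25919100 to 35131700 counts assigned to genes and liver libraries 26084500 to 34806000, and no 2 libraries were identical. Levels are given as CPM, a gene's counts relative to the size of its library, with library sizes scaled by the trimmed mean of M-values (TMM) within a tissue unless stated. H2afy in kidney was 49.0 to 61.1 CPM in the knockouts and 65.6 to 90.8 CPM in the wild types, so the groups did not overlap (log2 fold change -0.58, SE 0.10, edgeR adjusted p = 0.135). Because the allele removes only an alternative exon, the count over the whole gene does not measure the loss of macroH2A1.1. The share of counts from mitochondrial genes was 5.96% to 9.54% in kidney and was highest in knockout 13. Adrenal cortex genes stood apart in the kidney of knockout 16, where 5 marker genes summed to 204 CPM against 4.89 to 6.87 CPM in the other 9 kidneys.

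No gene of these 3 segments differed between macroH2A1.1 knockout and wild-type kidney by the test used. Of the 33 genes, 31 had enough counts to test, and none passed an adjusted p of 0.05 or even an unadjusted p of 0.05 (edgeR quasi-likelihood test, Benjamini-Hochberg adjustment over 17269 genes). Among all genes tested, 0.00579% were called and 2.95% had an unadjusted p under 0.05. DESeq2 and limma voom called none of the 31 genes either. With voom 1 of them, Klhl3, had an unadjusted p under 0.05 (log2 fold change -0.21), against 4.09% of all genes in that fit. Of the 31 genes, 20 were higher and 11 lower in the knockout, with a median log2 fold change of 0.02, while 52.2% of all genes were higher and 47.8% lower, with a median of 0.01. The estimates were narrow: each 95% interval held no change, and all 31 lay within a 1.5-fold change in either direction. The lowest bound was 0.674-fold, for Elf5, and the highest 1.497-fold, for Trpm6. For none of the 31 genes did the 5 knockout libraries separate from the 5 wild-type libraries, which happened for 0.562% of all genes tested. In whole kidney, fewer cells of a segment and less RNA per cell cannot be told apart, and a change in one that the other offset would not be seen.

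**Figure D1:**
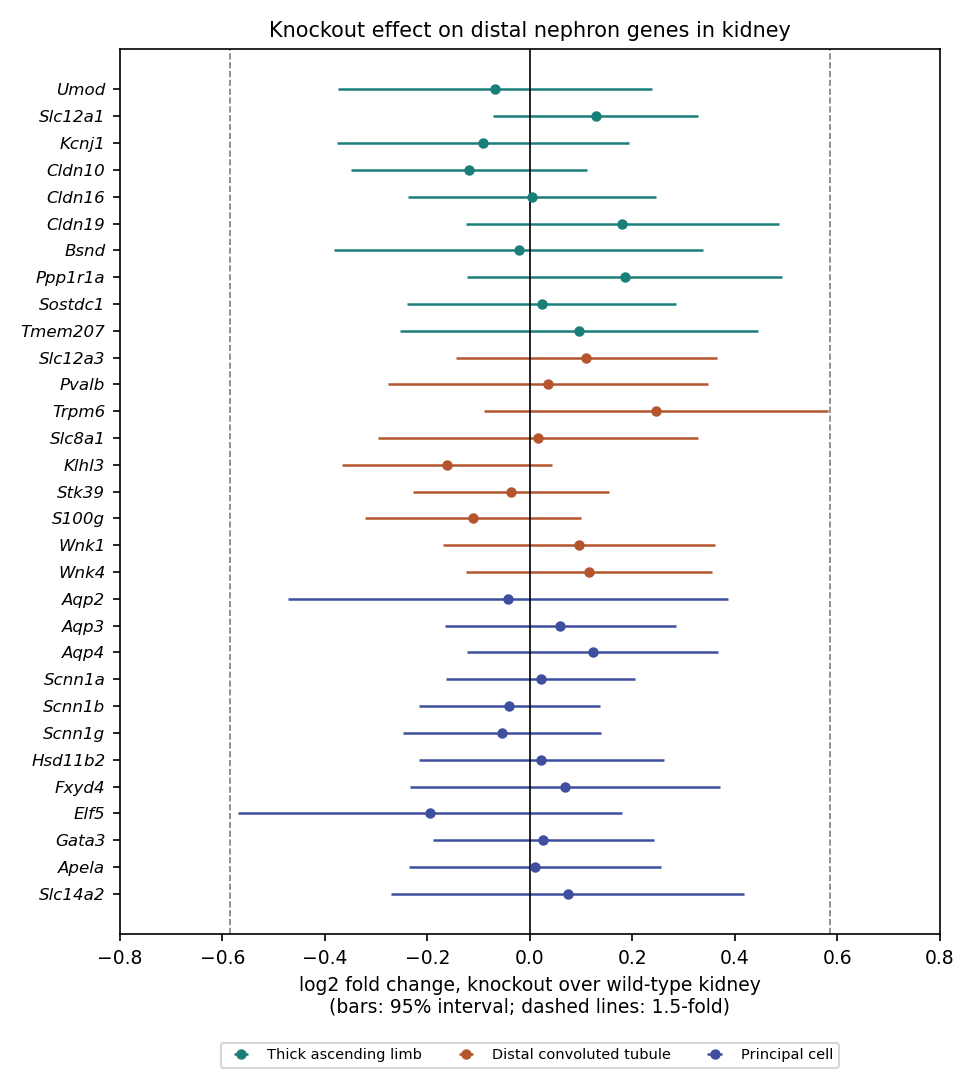
Log2 fold change of knockout over wild-type kidney for the 31 tested genes, one row per gene in segment order. Points are edgeR estimates, bars are 95% intervals and dashed lines mark a 1.5-fold change; every bar crosses 0 and stays inside the dashed lines.

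In the thick ascending limb, 6 of the 10 tested genes were higher and 4 lower in the knockout, with a median log2 fold change of 0.01. Umod (chr7:119462711-119479282, minus strand, GRCm38) encodes uromodulin. Its level was 2923, 2340.4, 2074, 2442 and 2164 CPM in knockouts 13, 14, 15, 16 and 18, and 2884, 2037, 2308, 1959 and 3333 CPM in wild types 19, 20, 22, 23 and 24. The 2 wild-type extremes, mice 23 and 24, enclosed all 5 knockouts, and the log2 fold change was -0.07 (SE 0.14). An antisense gene covers 19.5% of its exon bases, and the strand setting of the counting is not given in the sources used here. Slc12a1 (chr2:125152505-125230002, plus strand), the salt cotransporter targeted by loop diuretics, measured 1368, 1193, 1064, 1139 and 1255 CPM in the knockouts and 994, 1061, 1089, 1073 and 1289 CPM in the wild types. Knockouts 13, 14, 16 and 18 lay above wild types 19, 20, 22 and 23, and knockout 15 lay among these wild types. Wild type 24 was above every knockout except knockout 13. The difference was 0.13 on the log2 scale (SE 0.09, edgeR adjusted p = 0.999) and ran from 0.08 to 0.21 over the alternatives. Without mouse 24 its unadjusted edgeR p was 0.058, the smallest of the 31 genes in that fit.

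The transport partners of NKCC2 gave similar values. Kcnj1, the apical potassium channel, was 204.8 ± 35.8 CPM in the knockouts and 218 ± 39.3 CPM in the wild types (SD, n = 5 each). Bsnd, which encodes barttin, was 66.1 ± 13.5 CPM against 67.1 ± 16.2 CPM (SD, n = 5 each). Among the claudins, Cldn10 forms the sodium pore of the thick limb and had a log2 fold change of -0.12 (SE 0.11). Cldn16 and Cldn19, which together form the calcium and magnesium pathway, had log2 fold changes of 0.00 (SE 0.11) and 0.18 (SE 0.14). Cldn19 ran from 33.3 to 53.7 CPM in the knockouts and from 31.9 to 44.7 CPM in the wild types. Cldn14, which blocks that pathway, had at most 0.336 CPM in any kidney and was not tested there. Ppp1r1a, an inhibitor of protein phosphatase 1, measured 169.7, 269, 220.4, 182 and 318 CPM in the knockouts and 210.1, 212, 179, 214 and 204 CPM in the wild types. The knockouts thus spread on both sides of the wild types, with a log2 fold change of 0.18 (SE 0.14). Sostdc1, a secreted antagonist of BMP and Wnt signals, and Tmem207, a small membrane protein, had log2 fold changes of 0.02 (SE 0.12) and 0.10 (SE 0.16).

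In the distal convoluted tubule, 6 of 9 genes were higher and 3 lower, with a median log2 fold change of 0.04. Slc12a3 (chr8:94329201-94366214, plus strand), the thiazide target, was 1133, 734, 755, 926 and 982 CPM in the knockouts and 754, 758, 848, 856 and 981 CPM in the wild types. Knockouts held both the highest and the lowest library, and the log2 fold change was 0.11 (SE 0.12). Pvalb (chr15:78191114-78206400, minus strand) encodes the calcium buffer parvalbumin of the early distal convoluted tubule. It measured 22.0, 35.3, 34.4, 23.3 and 36.9 CPM in the knockouts and 32.1, 32.2, 25.3, 25.8 and 32.8 CPM in the wild types. The knockouts split into 2 libraries below and 3 above every wild type, and the log2 fold change was 0.04 (SE 0.15). Trpm6, the magnesium entry channel, had the largest difference of the 31 genes in either direction, at 0.25 on the log2 scale (SE 0.16, adjusted p = 0.999 by edgeR). Its level was 40.2 CPM in knockout 13 and 20.3 to 27.4 CPM in the other 4 knockouts, against 19.4 to 25.1 CPM in the wild types. Without mice 13 and 16 its log2 fold change was -0.04.

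The genes that set NCC activity and distal calcium transport also overlapped between genotypes. Wnk1 and Wnk4, the genes of WNK kinases, had log2 fold changes of 0.10 (SE 0.12) and 0.12 (SE 0.11). These counts cover whole genes and do not separate transcript forms. The Wnk4 value rested on knockout 18, at 364 CPM against 219.9 to 299.7 CPM in the other 9 kidneys, and was 0.0062 without it. Wnk1 was 594 CPM in knockout 13 and 365 to 448 CPM in the other 9 kidneys. Stk39, the kinase that phosphorylates NCC, differed by -0.04 (SE 0.09) on the log2 scale. Slc8a1, a basolateral sodium-calcium exchanger, and S100g, a cytosolic calcium-binding protein, had log2 fold changes of 0.02 (SE 0.15) and -0.11 (SE 0.10).

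Klhl3 is the only 1 of the 33 genes on the chromosome of the deleted exon. It spans chr13:58000228-58113592 on the minus strand, 1.86 Mb from the end of H2afy at chr13:56136361. Its p was the smallest of the 31 genes in kidney, but it was 0.112 unadjusted (edgeR), rank 1335 among all 17269 genes tested. Its level was 79.7, 62.0, 58.9, 61.0 and 67.8 CPM in the knockouts and 67.7, 65.9, 77.1, 81.3 and 76.6 CPM in the wild types. Knockout 13 lay with the upper wild types, knockout 18 between the lower wild types and the rest, and knockouts 14, 15 and 16 below every wild type. The log2 fold change was -0.16 (SE 0.10, edgeR adjusted p = 0.999), and its 95% interval ran from 0.776-fold to 1.03-fold. Over the alternatives run it stayed between -0.24 and -0.12, with an adjusted p from 0.399 to 1. In liver the Klhl3 estimate had the opposite sign, with a log2 fold change of 0.14 (SE 0.24).

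**Figure D2:**
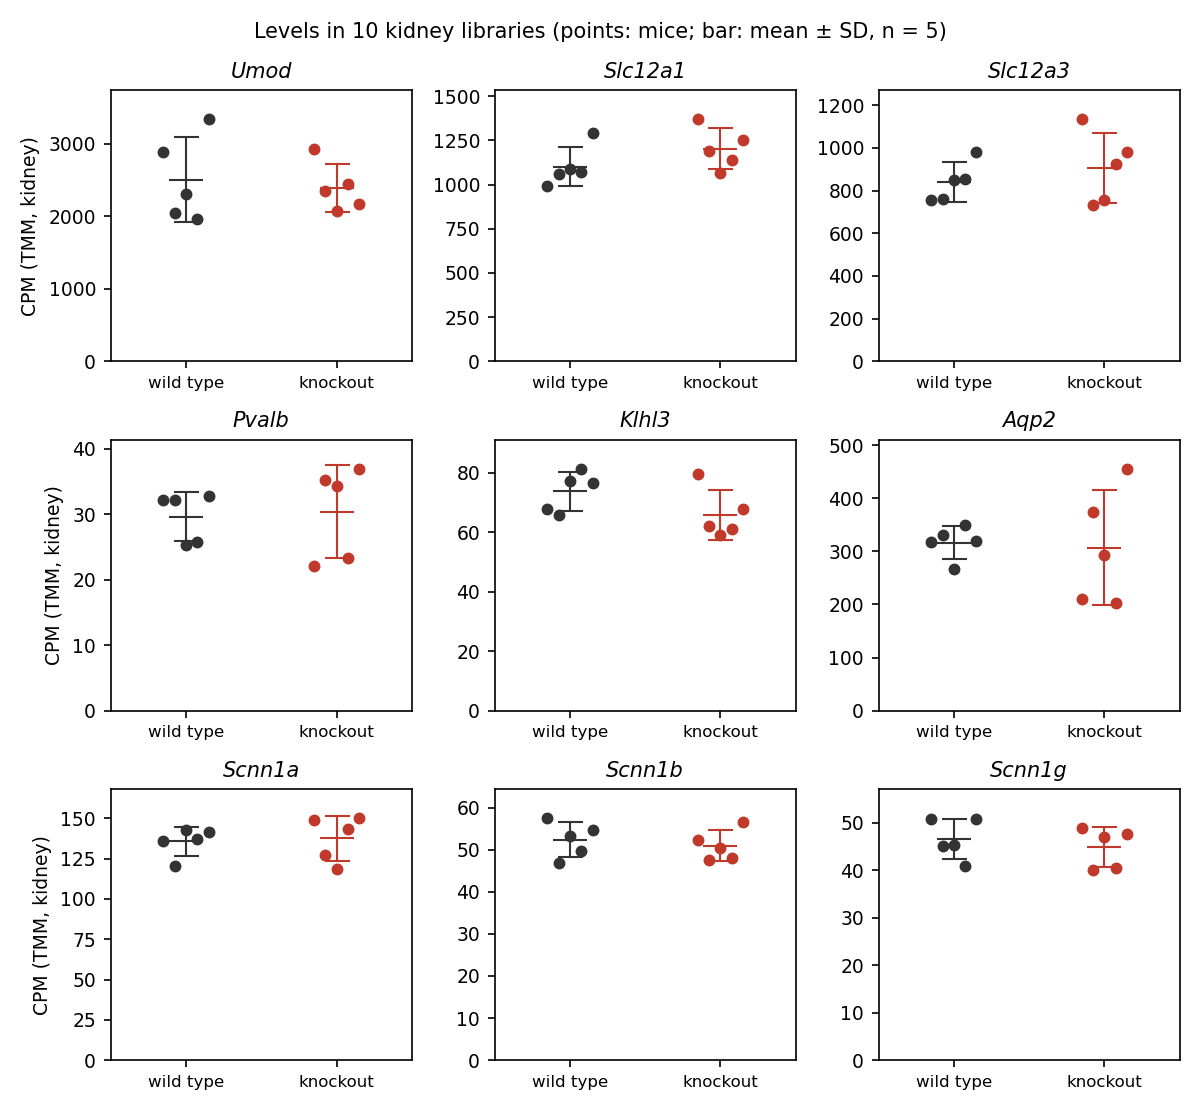
Levels in CPM (linear axes from 0) of 9 genes in the 5 wild-type and 5 knockout kidneys: Umod, Slc12a1, Slc12a3, Pvalb, Klhl3, Aqp2, Scnn1a, Scnn1b and Scnn1g. Points are mice and bars are the mean ± SD; the 2 groups overlap in every panel, and the Aqp2 knockouts run from 203.7 to 455 CPM, on both sides of the wild types.

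Among principal cell genes, 8 of the 12 tested were higher and 4 lower, with a median log2 fold change of 0.02. Aqp2 (chr15:99579055-99584547, plus strand), the vasopressin-regulated water channel, measured 209.7, 374, 293, 203.7 and 455 CPM in the knockouts and 318, 329.9, 266, 349 and 319 CPM in the wild types. Knockouts 13 and 16 lay below all wild types and knockouts 14 and 18 above all of them. The means were 307 ± 108 CPM and 316 ± 30.8 CPM (SD, n = 5 each), and the log2 fold change was -0.04 (SE 0.20). The basolateral water channels Aqp3 and Aqp4 had log2 fold changes of 0.06 (SE 0.11) and 0.12 (SE 0.12). Avpr2, the vasopressin receptor that drives Aqp2, had at most 0.474 CPM in any kidney and was not tested. Arhgap4, on the opposite strand, shares 81.3% of the exon bases of Avpr2, which bears on how reads there could be assigned.

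The 3 ENaC subunits were among the steadiest genes. Scnn1a (chr6:125320659-125344943, plus strand), the alpha subunit, was 148.8, 127.4, 118.3, 143.7 and 149.9 CPM in the knockouts and 136.1, 120.2, 143.0, 137.2 and 141.7 CPM in the wild types. Scnn1b (chr7:121865038-121918514, plus strand), the beta subunit, was 52.3, 47.6, 50.3, 48.0 and 56.5 CPM against 57.4, 46.9, 53.2, 49.7 and 54.7 CPM. Scnn1g (chr7:121734479-121768475, plus strand), the gamma subunit, was 48.9, 40.1, 47.0, 40.5 and 47.7 CPM against 50.8, 45.1, 45.2, 40.9 and 50.9 CPM. For each subunit the ranges of the 2 genotypes overlapped over most of their width, and the log2 fold changes were 0.02 (SE 0.09), -0.04 (SE 0.08) and -0.05 (SE 0.09). Hsd11b2, which inactivates glucocorticoids so that aldosterone can act, differed by 0.02 (SE 0.11) on the log2 scale. Fxyd4, a regulator of the sodium pump, and Slc14a2, the urea transporter of the inner medulla, each had a log2 fold change of 0.07 (SE 0.14 and 0.16). The transcription factors Elf5 and Gata3 had log2 fold changes of -0.19 (SE 0.18) and 0.03 (SE 0.10), and Apela, a peptide ligand of the apelin receptor, 0.01 (SE 0.12).

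Per kilobase of exon, the wild-type order of levels ran from S100g at 1699.97 ± 177 CPM per kb and Umod at 906 ± 213 CPM per kb down to genes under 1 CPM per kb. Aqp2 (223 ± 21.7 CPM per kb), Slc12a1 (191 ± 19.3) and Ppp1r1a (156.1 ± 11.001) followed (SD, n = 5 each). Next came Hsd11b2 at 103 ± 10.96 and Cldn10 at 85.1 ± 11.5 CPM per kb. The mean ± SD ranges of Aqp2 and Slc12a1 overlapped, and so did those of Slc12a3 (75.5 ± 8.31 CPM per kb), Kcnj1 (65.4 ± 11.8) and Wnk4 (62.7 ± 7.58). The range of Cldn10 also overlapped those of Hsd11b2 and Slc12a3. The order depends on the exon length used, which counts all annotated exon bases (11119 for Slc12a3, 5763 for Slc12a1) and can exceed a single transcript. The ENaC subunits ranked Scnn1a (32.8 ± 2.21 CPM per kb), Scnn1b (19.9 ± 1.57) and Scnn1g (15.6 ± 1.42). Elf5 stood at 0.750 ± 0.175 CPM per kb. In the knockouts S100g stood at 1574 ± 179 and Umod at 865 ± 120 CPM per kb. Dividing by a fixed exon length leaves the ratio of knockout to wild type as it was in CPM.

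Other genes of the same segments and pathways gave the same picture. No gene of these lists was called. Of 12 other thick limb genes, 7 were higher and 5 lower (median log2 fold change 0.01), and Irx1, a homeobox transcription factor, had a log2 fold change of 0.13 (SE 0.15). Of 11 other distal tubule genes, 6 were higher and 5 lower (median 0.02). Calb1, the calcium buffer of the late distal tubule, had a log2 fold change of -0.13 (SE 0.09) and Kcnj10, a basolateral potassium channel, -0.10 (SE 0.12). Of 7 other WNK pathway genes tested, 3 were higher and 4 lower (median -0.02), and Cul3, the ubiquitin ligase scaffold that works with Klhl3, had a log2 fold change of -0.10 (SE 0.12). Of 12 other principal cell genes, 9 were higher and 3 lower (median 0.07). Cldn4, a chloride pore claudin, was the 1 gene of these lists with an unadjusted p under 0.05 (log2 fold change -0.26, SE 0.12, edgeR adjusted p = 0.999). Adcy6, the adenylyl cyclase downstream of the vasopressin receptor, had a log2 fold change of 0.17 (SE 0.09). All 6 genes of the medullary osmolyte list had positive estimates, with a median of 0.09 and none called. Over this list, 2 libraries stood apart: the mean deviation of log2 CPM from the mean of the 10 kidneys was 0.35 in knockout 13 and -0.36 in wild type 19, and -0.06 to 0.16 in the other 8. Slc5a3, which imports inositol, had a log2 fold change of 0.24 (SE 0.16).

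Kidneys of 1 genotype also differed from each other. The median SD of log2 CPM within groups was 0.22 for the 31 genes and 0.22 for all genes tested, which were not matched to the 31 for level. Aqp2 varied most (0.37) and Scnn1b least (0.11). Knockouts 13, 16, 15, 14 and 18 stood in that rising order for Ppp1r1a, Pvalb and Cldn19, and in the same order for Aqp2 except that mouse 16 was just below mouse 13. Averaging over the principal cell genes, the mean deviation of log2 CPM from the mean of the 10 kidneys was -0.18 in knockout 13 and -0.15 in knockout 16, but 0.10 in knockout 14 and 0.18 in knockout 18. Wild types lay between -0.10 and 0.05. Over the distal convoluted tubule genes knockout 13 stood at 0.20 and the other 9 kidneys between -0.07 and 0.08. For the thick limb, wild type 24 (0.20) and knockout 14 (0.18) were highest and wild type 23 (-0.14) lowest.

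In some kidneys, but not in all, these deviations ran with the exon length of the genes, counted over all annotated exons. In knockout 13, long genes such as Wnk1, Slc8a1, Slc12a3 and Trpm6 were high, and short genes such as Aqp2, Pvalb and Ppp1r1a were low. Across the 31 genes, Spearman's rho between a gene's deviation and its exon length was 0.63 in knockout 13 and 0.43 in knockout 16, and -0.51 in knockout 14, -0.25 in knockout 15 and -0.36 in knockout 18. Among wild types it was -0.62 in mouse 19, -0.35 in mouse 20 and 0.36 in mouse 22, but only 0.14 in mouse 23 and 0.05 in mouse 24, the kidneys with the lowest and highest thick limb levels. Over all 17241 genes with a length, the same measure was 0.34, -0.24, -0.21, 0.17 and -0.10 in knockouts 13, 14, 15, 16 and 18. In wild types 19, 20, 22, 23 and 24 it was -0.18, -0.20, 0.07, -0.08 and 0.17, so in wild type 23 the 2 values had opposite signs. The genes of 1 library share its RNA and depth, so these values describe libraries and carry no p. Mitochondrial share was 9.54% in knockout 13, 9.36% in knockout 16 and 9.50% in wild type 22, and 5.96% in knockout 18. It was 7.72% and 7.04% in knockouts 14 and 15, and 7.14%, 8.40%, 8.98% and 7.94% in wild types 19, 20, 23 and 24. The part of exon length, mitochondrial RNA and RNA quality in these differences was not tested.

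**Figure D3:**
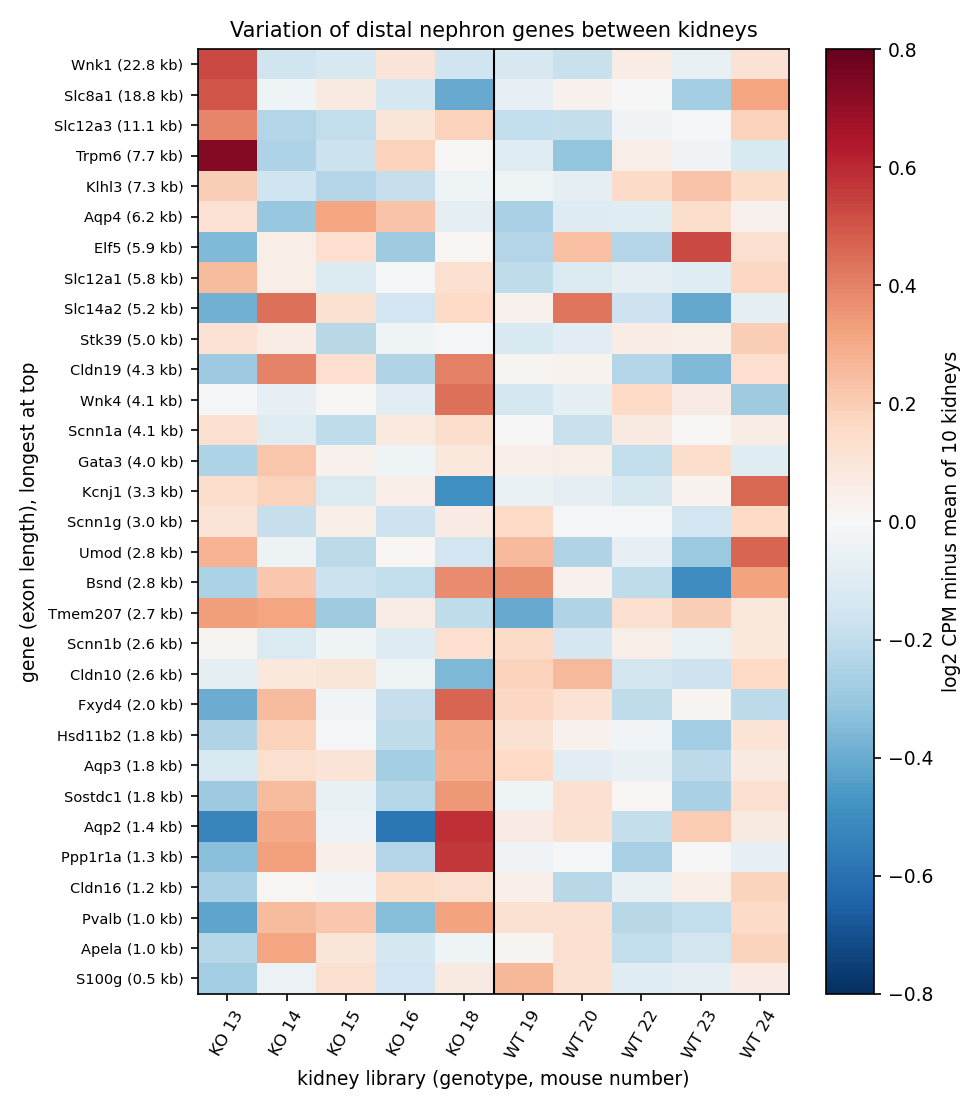
Heat map of log2 CPM minus the mean of the 10 kidneys for the 31 tested genes (rows, ordered by exon length in kb, longest at top) in each kidney (columns, knockouts left of the line). Knockout 13 is red at the top and blue at the bottom, knockout 18 is strongest in red for Aqp2 and Ppp1r1a, and no row divides by genotype.

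Mice 13 and 16 therefore bore on the knockout estimates. With both left out, a choice made after seeing the data, no gene of the 31 was called, and 5 had an unadjusted p under 0.05, against 10.99% of all genes in that fit. They were Ppp1r1a (log2 fold change 0.39, edgeR adjusted p = 0.232), Cldn19 (0.38, adjusted p = 0.295), Klhl3 (-0.24), Pvalb (0.26) and Fxyd4 (0.25). Of the 31 genes, 16 were then higher and 15 lower. With only mouse 13 left out, Klhl3 (-0.24) and Ppp1r1a (0.28) had an unadjusted p under 0.05, against 5.54% of all genes in that fit. Both had an edgeR adjusted p of 0.878. The Ppp1r1a difference was 0.04 without mouse 18, its highest kidney, against 0.18 with all mice. The count of higher genes ran from 14 of 31 without mouse 14, 18 or 23 to 24 of 31 without mouse 24, and was 26 without mice 16 and 24. Without mouse 16 alone, whose kidney held the adrenal signal, it was 20, with no gene at an unadjusted p under 0.05. Whether the 31 genes tended upward or downward thus depended on single libraries.

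Markers of other kidney cells gave no call either. In knockout kidney, 4 proximal tubule genes were higher and 6 lower (median log2 fold change -0.05), and 7 of 9 intercalated cell genes were higher (0.07). Podocyte genes had 5 of 7 higher, endothelial genes 4 of 7, immune genes 2 of 6 and fibroblast genes 0 of 6 (median -0.09), with wild type 23 highest in fibroblast genes by a mean deviation of 0.24. Genes of tissues outside the tubule were also uneven. All 4 fat genes were higher (median 0.62, summed level 26.5 to 110.2 CPM in knockouts and 28.0 to 79.5 CPM in wild types), and 1 of them, Ucp1, had an unadjusted p under 0.05. So did 1 gene each of the proximal tubule, fibroblast and skeletal muscle lists. All 5 hepatocyte genes were higher (0.16), with summed levels of 135.3 to 167.3 CPM in knockouts and 105.6 to 166.9 CPM in wild types. The 3 tested skeletal muscle genes were lower (-0.21), and 4 of 5 red blood cell genes were lower (-0.03). The part of these tissues in the values of the 31 genes was not tested.

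In liver, where these nephron segments do not exist, 9 of the 33 genes had enough counts to test. None was called between knockout and wild type, and among all 14591 genes tested 0% were called and 4.17% had an unadjusted p under 0.05. Of the 9 genes, 6 were higher and 3 lower in the knockout, against 51.3% and 48.7% of all genes. Slc8a1 (0.22), Klhl3 (0.14), Stk39 (-0.08), Wnk1 (0.02), Wnk4 (0.08), Aqp4 (0.58) and Scnn1a (-0.06) are given as log2 fold changes. Cldn14 and Pvalb had an unadjusted p under 0.05.

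Cldn14 in liver was 11.8, 14.98, 8.12, 7.68 and 12.1 CPM in knockouts 13, 14, 15, 16 and 18 and 13.4, 12.1, 23.1 and 24.9 CPM in wild types 19, 20, 22 and 24. Wild types 22 and 24 were above all knockouts, and wild types 19 and 20 lay among them. The log2 fold change was -0.75 (SE 0.26, edgeR adjusted p = 0.9998), and it ran from -0.90 to -0.46 over the alternatives. Pvalb was 1.73, 0.161, 0.574, 0.362 and 1.16 CPM in the knockout livers and 0.207, 0.234, 0.0303 and 0.310 CPM in the wild types. These levels rest on 5 to 58 counts per knockout library and 1 to 8 counts per wild-type library. Knockout 14 lay among the wild types and the other 4 above them, and the difference was 2.05 on the log2 scale (SE 0.70, edgeR adjusted p = 0.9998). Parvalbumin is also abundant in fast skeletal muscle. The sum of 8 skeletal muscle genes was 15.97, 1.39, 6.94, 5.01 and 9.14 CPM in the same knockout livers and 1.33 to 3.21 CPM in the wild types, so the 5 knockouts had the same order for both measures. The part of muscle RNA in the Pvalb difference was not tested. Parvalbumin's gene also carried the Dre deleter of the separate macroH2A1.2 line, per the labels, which was not used to make these mice.

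A test of whether the knockout effect differed between liver and kidney called none of the 32 genes fitted and 0% of all 18549 genes, and 4.12% of all genes had an unadjusted p under 0.05. Pvalb had the smallest p of the 33 genes there, with an effect higher in liver by 2.04 on the log2 scale (SE 0.66, edgeR adjusted p = 0.945). The other 4 genes with an unadjusted p under 0.05 (Slc12a3, Trpm6, Ppp1r1a and Slc12a1) failed the low-count filter in liver, so their estimates rest on few liver counts.

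Wild-type kidney was set against wild-type liver to check the genes as kidney markers. Of the 32 genes tested, 31 were higher in kidney and 1 was lower, and all 32 passed the test, as 71.9% of all 18549 genes did (40.2% higher in kidney and 31.7% lower). Here CPM were scaled over all 19 libraries. In the 4 wild-type livers together, 12 of the genes had no count: Umod, Kcnj1, Cldn16, Cldn19, Bsnd, Sostdc1, Aqp2, Scnn1g, Hsd11b2, Fxyd4, Apela and Slc14a2. Against a floor of 3 counts summed over those livers, Umod was at least 53896-fold higher in kidney, Aqp2 at least 6954-fold, Kcnj1 at least 4723-fold and Hsd11b2 at least 4128-fold. The smallest such bound was 223-fold, for Cldn16. Slc12a1, Aqp3 and Scnn1b had 3 counts each in wild-type liver, Slc12a3 2 and Tmem207 1, against 170804, 14525, 8138, 130063 and 885 counts in wild-type kidney.

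The genes of the WNK cascade and some channels were also present in liver. Wnk1 was higher in kidney by 2.08 on the log2 scale (SE 0.13), Klhl3 by 2.17 (SE 0.20), Stk39 by 3.57 (SE 0.14), Wnk4 by 4.25 (SE 0.20) and Slc8a1 by 6.72 (SE 0.28). Elf5 (3.30), Aqp4 (4.30), Gata3 (5.52), Trpm6 (5.62), Pvalb (6.37) and S100g (10.8) were also higher in kidney. Elf5, Gata3, Trpm6 and S100g had 29, 30, 30 and 29 counts over the 4 wild-type livers and failed the low-count filter there. Among the 32 tested genes, the alpha subunit of ENaC had the smallest difference between the tissues. Scnn1a was 101 ± 6.93 CPM in wild-type kidney (SD, n = 5) and 58.1 ± 12.7 CPM in wild-type liver (SD, n = 4), a log2 difference of 0.80 (SE 0.15, edgeR adjusted p = 5.13e-05). Its partners had 3 liver counts (Scnn1b) and 0 (Scnn1g), so of the 3 subunits only Scnn1a reached the low-count filter in liver. Cldn14 ran the other way, at 0.104 ± 0.095 CPM in kidney (SD, n = 5) and 25.5 ± 8.87 CPM in liver (SD, n = 4), a log2 difference of -7.93 (SE 0.38, edgeR adjusted p = 2.29e-14). Cldn14 was thus nearly absent from these kidneys, and its level goes against its place among thick limb markers here. Avpr2 had 50 counts in the 5 wild-type kidneys and 13 in the 4 wild-type livers and was not tested, so its place among principal cell markers could not be checked. Scaling by library totals shifted the median gene from 0.17 to 1.05 in this contrast and the share of calls that were higher in kidney from 55.9% to 84.5%. Under that scaling Scnn1a differed by 1.68 and Cldn14 by -7.06.

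**Figure D4:**
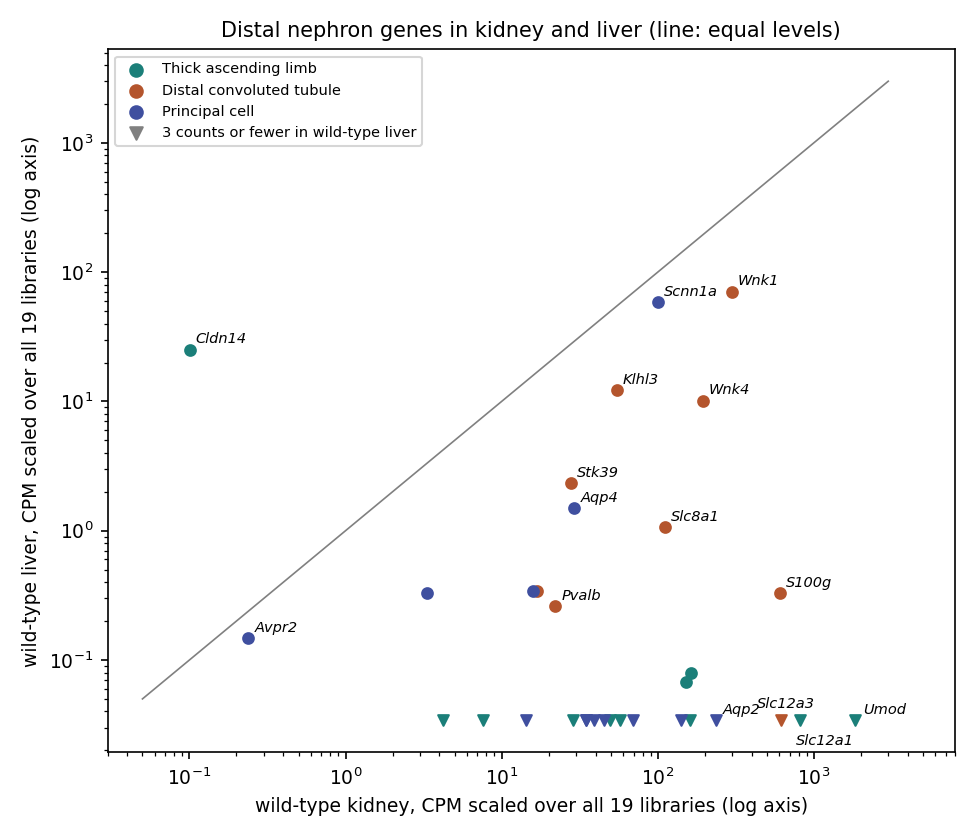
Mean level of each gene in wild-type kidney (horizontal) and wild-type liver (vertical), both on log axes in CPM scaled over all 19 libraries, coloured by segment, with a line of equal levels. Triangles stand for genes with 3 counts or fewer over the 4 wild-type livers, drawn at that floor (0.0341 CPM); only Cldn14 lies above the line.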

How the data were processed

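Per the labels' protocols, RNA was purified from homogenised kidney and liver and poly(A)-selected for Illumina libraries. The authors deposited 1 table of raw counts per gene for all 19 libraries. Trim Galore, STAR, featureCounts, DESeq2 and build GRCm38 are named, without versions, in the submitters' processing notes; the strand setting of the counting is not given in the sources used here. The lowest row sum in the table is 10 counts, so rarer genes are not in it. Ensembl IDs, versions removed, were matched to GENCODE M21 on GRCm38 (26417 of 26506), which also gave coordinates, exon lengths and overlaps. The exon length of a gene counts every base in any of its annotated exons, so it can exceed the length of a single transcript.

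Differences were tested with edgeR 4.0.16 (robust quasi-likelihood, TMM, filterByExpr with a minimum count of 10) on the whole table, kidney (10 libraries) and liver (9) apart, and with 1 group-means model of all 19 libraries for the tissue contrast and the difference of effects. P-values were adjusted by Benjamini-Hochberg over all genes tested and called under 0.05. Each edgeR SE was derived from the log2 fold change and the F statistic of its test. The 95% intervals use that SE and the degrees of freedom of the test. Log2 CPM used a prior count of 2. The code was tested on simulated data. DESeq2 1.42.0, limma 3.58.1 (voom with sample weights), other scalings and filters, a mouse block and left-out libraries were alternatives. Depths of 25919100 to 35131700 counts limit precision mainly for genes under 1 CPM.

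The 33 genes and the lists of other genes were chosen with earlier results of these data known. All 33 are named; values in every kidney are printed for the defining genes of each segment, for Klhl3 and, chosen after values were seen, Ppp1r1a. From each other pathway list, genes were named among the 2 with the smallest p in kidney. Promoters came from the RefSeq table for GRCm38.p6. Of 155 genes in all lists, Tnnc2 was not analysed here.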

Additional observations from a re-analysis of the deposited data

Results flagged for a closer look

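In 5 of 86 groups of libraries, 1 library stood apart from the rest of its group by the gap between it and its nearest neighbour (5.81%, where chance gives about 5%, or 1 group in 20). Wild-type mouse 24 had a Kcnj1 level of 287 CPM in kidney, against 190.6 to 212.6 CPM in the other 4 wild types. Wild-type mouse 22 was low for Ppp1r1a in kidney, at 179.0 CPM against 204.4 to 214.2 CPM. Knockout mouse 18 was high for Wnk4 in kidney, at 364 CPM against 251.6 to 269.7 CPM. In liver, knockout mouse 13 was high for Slc8a1 (1.67 CPM against 0.517 to 0.774 CPM) and knockout mouse 16 for Wnk4 (12.4 CPM against 5.62 to 7.42 CPM). The causes of these gaps were not tested.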

How the results depend on the processing

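Under every alternative run, 0 of the 33 genes were called between knockout and wild type in kidney or in liver, and 32 were called between the tissues. For the difference of effects, 0 were called among those of the 33 that passed the low-count filter in both tissues. The rest of the 33 were not counted separately there. The number of all genes called in kidney, 1 in the reported fit, was 3 in 1 fit of all 19 libraries, 4 with no filter, 7 with limma voom, 15 with DESeq2, 11 without mice 13 and 16 and 12 without mice 16 and 24. In liver, where 0 were called, the counts were 21, 3, 5, 42, 8 and 11 in that order. For the difference of effects, 0 in the reported fit, they were 1 with limma voom, 11 with DESeq2, 4 without mice 13 and 16 and 4 without mice 16 and 24. Leaving out 1 mouse at a time gave 1 to 10 genes in kidney, 0 to 7 in liver and 0 to 3 for the difference, with the highest count each time without mouse 16. The cause of these shifts was not tested.

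Signs of log2 fold changes near 0 were not stable, and no estimate whose sign changed was called. In 1 fit of all 19 libraries, estimates that changed sign were, in kidney Cldn16 -0.0029. With library totals, estimates that changed sign were, in kidney Bsnd 0.012. With limma voom, estimates that changed sign were, in kidney Hsd11b2 -0.0092, Scnn1a -0.020 and Sostdc1 -0.042, and in liver Klhl3 -0.0054 and Wnk4 -0.040. With no filter, estimates that changed sign were, in kidney Cldn16 -0.0046. Without mice 13 and 16, estimates that changed sign were, in kidney Aqp2 0.24, Bsnd 0.12, Scnn1a -0.047, Slc12a3 -0.035, Slc8a1 -0.13, Tmem207 -0.011, Trpm6 -0.041 and Wnk1 -0.12, and in liver Klhl3 -0.080, Slc8a1 -0.19, Wnk1 -0.055 and Wnk4 -0.23. Without mice 16 and 24, estimates that changed sign were, in kidney Aqp2 0.077, Bsnd 0.11, Kcnj1 0.0066, Scnn1g 0.013, Stk39 0.014 and Umod 0.048, and in liver Stk39 0.024 and Wnk4 -0.12. Leaving out 1 mouse at a time, the log2 fold changes that crossed 0 ran, in kidney Apela -0.079 to 0.065, Aqp2 -0.23 to 0.069, Aqp3 -0.010 to 0.12, Bsnd -0.13 to 0.074, Cldn16 -0.048 to 0.065, Fxyd4 -0.056 to 0.16, Gata3 -0.030 to 0.085, Hsd11b2 -0.057 to 0.080, Kcnj1 -0.15 to 0.028, Pvalb -0.044 to 0.13, Scnn1a -0.020 to 0.070, Slc14a2 -0.039 to 0.21, Slc8a1 -0.13 to 0.11, Sostdc1 -0.070 to 0.091, Stk39 -0.073 to 0.010, Umod -0.15 to 0.056 and Wnk1 -0.049 to 0.15, and in liver Klhl3 -0.13 to 0.26, Scnn1a -0.17 to 0.049, Slc8a1 -0.15 to 0.46, Stk39 -0.17 to 0.017, Wnk1 -0.024 to 0.069 and Wnk4 -0.16 to 0.17.

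Knockout and wild type share no mouse numbers, so no block was possible within a tissue. With the mouse number as a replicate block in the model of both tissues, 13194 genes were called between wild-type kidney and liver (13329 without it), 32 of the genes described here among them, and 0 genes for the difference of effects. Kidney and liver libraries of the same number deviated together from their group means with r over 0.1 in 7 of 9 pairs (0.0827 to 0.416). Set only against kidneys of the same genotype, 8 of 9 livers were closest to their own kidney. The margin over the next kidney was small for mouse 14 (r 0.0956 against 0.0886) and mouse 16 (0.0827 against 0.0667). Since the labels do not state the pairing, the block is a hint from the data only.

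Depth limits the liver results for genes under about 1 CPM, such as Pvalb, and the kidney results for Cldn14 and Avpr2. Changes inside the printed intervals could not be resolved with 5 kidneys per genotype.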
